A study of Aspergillus aculeatus with 24 samples.

Results

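The 152 gene IDs described here are those whose deposited level in Aspergillus aculeatus mycelium was at least 2 times as high in wheat bran-soybean medium as in glucose medium, in each of 3 strains and on each of 2 days. They are 152 of 8615 IDs, or 1.76%. For each strain and day, M is the log2 of the mean of the 2 wheat bran-soybean values over the mean of the 2 glucose values. A member had M of at least 1 in all 6 combinations of strain and day, and a wheat bran-soybean group mean of at least 100 on at least 1 day in each strain. The members were thus chosen by the medium difference itself, which is given below as a description with no test. The 6647 IDs with a high enough level contained most of the IDs with such an M: 164 IDs met the rule on M, and 12 of these were left out by the floor on level.

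The strains were BCC56535, BCC199 and HUT2365, which the series describes as unequal in how well they break down plant biomass. Each was grown aerobically at 30 °C in glucose or in wheat bran-soybean and sampled after 72 h (day 3) and 144 h (day 6). The 24 libraries form 12 groups of 2, lettered A and B as biological replicates. Whether the letters stand for separate cultures is not stated, and p-values then rest on a spread between libraries that is perhaps technical.

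Filamentous fungi of the genus Aspergillus live on plant matter by secreting cellulases, hemicellulases and pectinases, and they take up the sugars that these enzymes release. In aspergilli studied for this, transcription activators such as XlnR, ClrA and ClrB switch on genes for such enzymes when plant polymers are present, and the repressor CreA keeps many of them low while glucose is plentiful. Wheat bran is rich in arabinoxylan and cellulose, and soybean adds protein and pectic polymers. The deposited table pairs no ID with a gene name, and 0 of the 8615 IDs matched the reference table of 11152 A. aculeatus genes, so no enzyme, activator or other role is assigned to any ID below.

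Levels below are normalized reads, which are the deposited values less the constant of 1 that, from the values, they appear to carry. The libraries held between 19248977 and 30003709 recovered reads, and 3 reads corresponded to between 2.37 and 4.48 normalized reads. The replicates of HUT2365 in wheat bran-soybean on day 3 were the furthest apart, with an SD of 0.824 for the log2 difference over the tested IDs and 1.14 over the members. Those of BCC199 in the same medium on day 3 were the closest, at 0.33 and 0.239. Levels are not corrected for gene length, so they compare libraries for an ID and not IDs with each other, and in such whole-culture samples fewer cells that use a gene cannot be told apart from less RNA per cell.

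The members took a small share of the reads in glucose and a larger one in wheat bran-soybean, as the rule requires. Their share of all normalized reads lay between 0.302% and 0.543% in the 12 glucose libraries and between 3.93% and 6.63% in the 12 wheat bran-soybean libraries. In wheat bran-soybean it was highest in BCC199 on day 3, at 6.63% and 6.46%, and lowest in 1 of the BCC56535 libraries of day 6, at 3.93%, whose replicate was at 5.24%. The 10 members with the highest mean level in wheat bran-soybean made up between 26.6% and 42.3% of the members' reads in a wheat bran-soybean library.

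**Figure D1:**
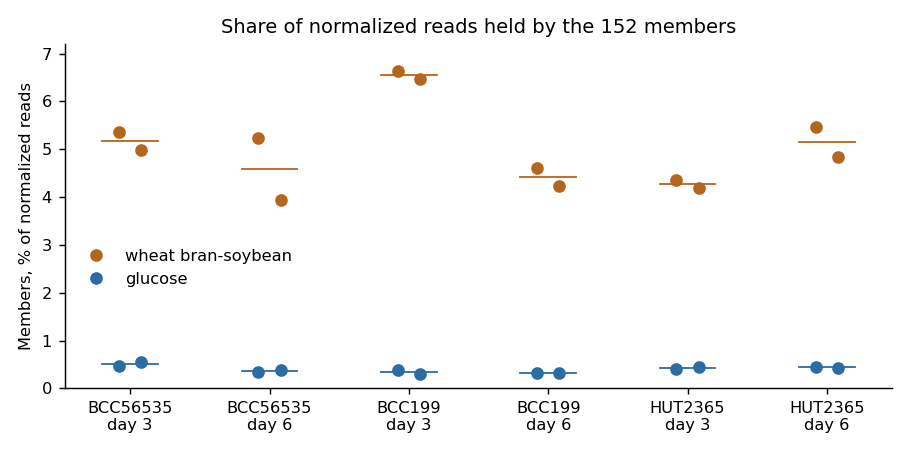
Share of all normalized reads held by the 152 members (y axis, %) in each library, by strain and day (x axis); points are the 2 libraries of a group and the short lines their means, in wheat bran-soybean (brown) and glucose (blue). The glucose libraries lie between 0.302% and 0.543% and the wheat bran-soybean libraries between 3.93% and 6.63%.

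The median member lay below the median ID in glucose and above it in wheat bran-soybean. In glucose the median group mean over the members was 200 and 198 normalized reads in BCC56535 on days 3 and 6, 170 and 165 in BCC199, and 220 and 230 in HUT2365. In wheat bran-soybean it was 4654 and 2004 in BCC56535, 3521 and 2234 in BCC199, and 3104 and 3093 in HUT2365. The median over all IDs stayed between 813 and 893 in the 12 groups. On day 6 the wheat bran-soybean median was thus lower than on day 3 in BCC56535 and in BCC199, and nearly the same in HUT2365. A few members were abundant in glucose as well, where between 20 and 27 members per group had a mean of at least 1000, while between 11 and 25 were under 10.

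The size of the medium difference varied widely among members. The median M on days 3 and 6 was 4.01 and 2.93 in BCC56535, 4.09 and 3.43 in BCC199, and 3.36 and 3.01 in HUT2365, beside medians over all IDs between -0.05 and 0.03. Of the 152 members, 63 had M of at least 2 in all 6 combinations and 9 had M of at least 5 in all 6. The lowest of a member's 6 values had a median of 1.82 over members, and the highest a median of 5.75. M differed between the highest and lowest combination by more than 5 in 39 members and by less than 1 in 4. For the median member, the 6 glucose means spanned 2.6 on the log2 scale and the 6 wheat bran-soybean means 3.0. The mean M of both days was highest in BCC56535 for 60 members, in BCC199 for 55 and in HUT2365 for 37. M was larger on day 3 than on day 6 for 91 members in BCC56535, 97 in BCC199 and 68 in HUT2365. Because M was taken on values that carry a constant of 1, it understates the ratio of members near 0 reads in glucose.

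**Figure D2:**
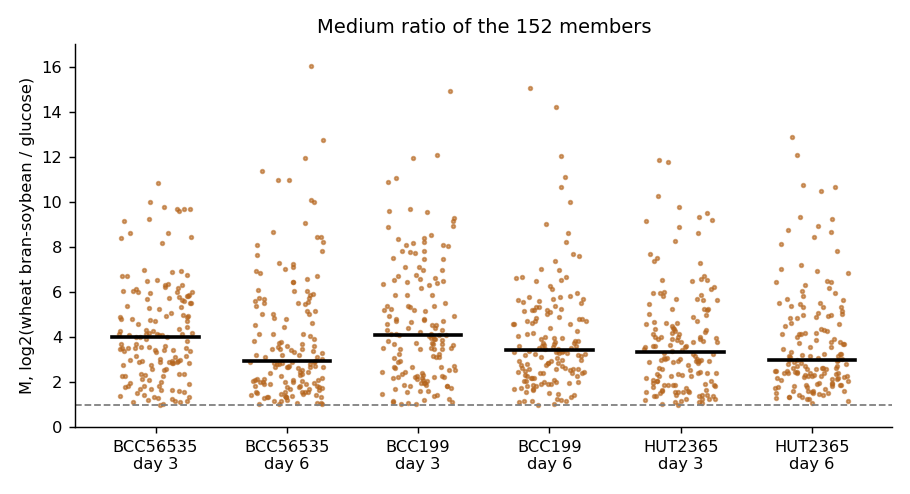
M, the log2 ratio of the wheat bran-soybean mean to the glucose mean (y axis), for the 152 members in each strain and day (x axis); each point is a member, the thick lines are medians and the dashed line is the minimum of 1 that chose the members. Medians run from 2.93 in BCC56535 on day 6 to 4.09 in BCC199 on day 3.

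For 146 of the 152 members both wheat bran-soybean libraries lay above both glucose libraries in all 6 combinations, which 5.29% of all IDs also showed, and nothing is read from this count because the rule used the contrast. In single combinations M reached 1 in 18.7% of all IDs for BCC56535 on day 3 and 16.3% on day 6, in 17.3% and 16.3% for BCC199, and in 20.2% and 17.4% for HUT2365. The other 6 members overlapped between media in 1 combination each, 5 of them in BCC56535 on day 6 and 1 in HUT2365 on day 3. They are acu00086_3, acu00793_1, acu01662_1, acu08108_1 and acu08109_1 in BCC56535, and acu02878_1 in HUT2365. In each of the 5, it was wheat bran-soybean library B of BCC56535 on day 6 that came down to the glucose values. For acu01662_1 that library held 1392 normalized reads and its replicate 13667, beside 2558 and 3024 in glucose. Without that replicate A, 135 IDs would meet the rule, the lowest number among the 24 libraries left out in turn, and without library B 156 would.

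Members close to the limits of the rule differed little from IDs just outside it. The smallest M among members was 1.001, for acu07563_1 in BCC56535 on day 3, where deposited means were 740 in glucose and 1480 in wheat bran-soybean. The next was 1.007, for acu00793_1 in BCC199 on day 6, with means of 120 and 242. Just outside were acu05264_1 with a lowest M of 0.999 and acu00488_1 with 0.997, at 83.7 and 167, and at 52.7 and 105, in BCC199. In all, 30 members had a lowest M under 1.2. On level, acu02277_1 and acu00511_1 were the lowest members at 120 and 123 in the strain where they were weakest, and acu06611_1 and acu00405_1 were outside at 94 and 93.1.

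The members with the most wheat bran-soybean reads, uncorrected for gene length, were acu02161_1, acu06784_1 and acu03489_1. In wheat bran-soybean acu02161_1 held 62235 and 37397 normalized reads in BCC56535 on day 3 and 31745 and 31548 on day 6, 77355 and 73730 and then 79289 and 79925 in BCC199, and 30520 and 49556 and then 39890 and 51243 in HUT2365. In glucose it held 12808 and 20872 reads in BCC56535 on day 3 and 186 and 779 on day 6, while the BCC199 libraries lay between 879 and 4107 and the HUT2365 libraries between 140 and 294. The 4 BCC199 libraries were above all others in wheat bran-soybean, and the 2 BCC56535 libraries of day 3 were above all others in glucose. Its strains and days in wheat bran-soybean did not pass the test in any comparison (limma, adjusted p from 0.058 to 0.97), and its change in BCC56535 glucose did, at -5.42 on the log2 scale (SE 0.63, adjusted p = 1.7e-05).

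The other 2 had other strain patterns. In wheat bran-soybean acu06784_1 held 48123 and 52684 reads in BCC56535 on day 3 and 83725 and 80212 on day 6, 73039 and 68067 and then 45464 and 35974 in BCC199, and 14897 and 11189 and then 53229 and 42918 in HUT2365. It thus had its highest values in BCC56535 on day 6 and its lowest in HUT2365 on day 3, and its day effect differed between strains (limma F test, adjusted p = 0.009). In wheat bran-soybean acu03489_1 held 193592 and 172741 reads in BCC199 on day 3 and 60400 and 55643 on day 6, while the 4 BCC56535 libraries lay between 6544 and 24186 and the 4 HUT2365 libraries between 6201 and 9845. The BCC199 libraries overlapped with neither other strain, and the log2 difference of HUT2365 from BCC199 was -3.60 (SE 0.21, limma, adjusted p = 2.7e-10). In glucose the 12 libraries of acu03489_1 lay closer together, between 771 and 2443 reads.

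By Pearson's r of log2 values over the 12 wheat bran-soybean libraries, given as a description, the members most like acu02161_1 were acu03530_1 at 0.828 and acu00086_3 at 0.825. Those most like acu06784_1 were acu00254_1 at 0.884 and acu02600_1 at 0.881, and those most like acu03489_1 were acu07100_1 at 0.941 and acu04042_1 at 0.91. The 12 libraries share strains and days, and each pair was taken as the best of the other members. Over the glucose libraries r was 0.717 and 0.294 for the pairs of acu02161_1, in the same order. It was 0.234 and 0.335 for those of acu06784_1, and 0.796 and -0.237 for those of acu03489_1.

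The members with the largest lowest M, acu05035_1 and acu05036_1, were at or near 0 in glucose. In the 12 glucose libraries acu05035_1 held between 0 and 3.29 normalized reads, and its M was 9.69 at the lowest. In wheat bran-soybean it held 3921 and 1229 reads in BCC56535 on day 3 and 85029 and 49920 on day 6. BCC199 held 31186 and 30267 and then 55113 and 46628, and HUT2365 3825 and 6872 and then 13433 and 13246. The 2 days did not overlap in any strain, and the rise passed the test in BCC56535, by 4.89 on the log2 scale (SE 0.47, limma, adjusted p = 1e-06), with 0.72 (adjusted p = 0.37) in BCC199 and 1.38 (adjusted p = 0.08) in HUT2365. In glucose acu05036_1 lay between 1.58 and 32.6 reads, with a lowest M of 9.19. It rose in BCC56535 from 6188 and 3525 to 53429 and 37227 reads in wheat bran-soybean, by 3.25 on the log2 scale (SE 0.46, adjusted p = 5.2e-05). In both, the day effect differed between strains (F test, adjusted p = 0.00055 for acu05035_1 and 0.0095 for acu05036_1).

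Members with the widest range of M were near 0 reads in glucose in at least 1 strain, and those with the narrowest were not. M of acu03406_1 ranged over 11.14 between combinations. Its wheat bran-soybean reads rose between days from 160 and 237 to 6317 and 3581 in BCC56535 and from 1260 and 1428 to 32808 and 27647 in BCC199, and its glucose reads were between 0 and 1.58 in HUT2365 and up to 93.4 in BCC56535. M of acu02511_1 ranged over 9.65, with glucose levels between 597 and 899 reads in HUT2365 and between 0 and 2.06 in BCC199. At the other end, M of acu06120_1 ranged over 0.78 and that of acu04426_1 over 0.86. Those members were above 1000 reads in every glucose library, between 1296 and 3904 for acu06120_1 and between 1071 and 3776 for acu04426_1.

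The question of how the strains differ was taken within each medium, a contrast that the rule did not use. The rule still used the same values: its floor on level and its limit on M bound the levels of every strain. Strain differences among members are therefore not independent of how the members were chosen. In wheat bran-soybean the strains differed in many members, at about the share of all IDs. Between BCC56535 and BCC199, 105 of 152 members passed the test (limma, adjusted p under 0.05, mean of the 2 days), 57 higher and 48 lower in BCC56535, or 69.1% beside 68.4% of the 8509 tested IDs. By direction that is 37.5% beside 34.6% higher and 31.6% beside 33.7% lower. Between HUT2365 and BCC199, 98 passed, 52 higher and 46 lower in HUT2365, or 64.5% beside 70.5% (34.2% beside 36.3% higher, 30.3% beside 34.2% lower). Between BCC56535 and HUT2365, 92 passed, 48 higher and 44 lower in BCC56535, or 60.5% beside 65.5% (31.6% beside 33% higher, 28.9% beside 32.5% lower). The median differences over members were 0.15, 0.02 and 0.04 on the log2 scale, beside 0, 0.05 and 0.01 over all tested IDs. Relative to both other strains, 27 members were higher and 24 lower in BCC56535 (17.8% beside 17.5%, 15.8% beside 16.2%), 24 higher and 29 lower in BCC199 (15.8% beside 21%, 19.1% beside 21.4%), and 26 higher and 27 lower in HUT2365 (17.1% beside 19.5%, 17.8% beside 18.3%). None of the 3 pairs passed for 14 members, or 9.21% beside 9.52%. These shares were all near or below those of all IDs.

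Single members differed strongly. The largest difference among members whose libraries did not overlap was that of acu07833_1, which was low in BCC199. It held between 287 and 438 reads in the 4 BCC199 libraries, between 8050 and 15742 in BCC56535 and between 7412 and 15261 in HUT2365. The BCC199 libraries did not overlap with the others, and the difference was 5.17 on the log2 scale to BCC56535 (SE 0.29, limma, adjusted p = 1.7e-10) and 5.07 to HUT2365 (adjusted p = 1.9e-10). In glucose the same member was lower in all strains, as the rule requires. It held between 50.9 and 127 reads there in BCC199, between 92.3 and 913 in BCC56535 and between 122 and 227 in HUT2365. The second such member, acu02509_1, held between 184 and 312 reads in BCC199, 2476 to 9343 in BCC56535 (log2 difference 4.20, adjusted p = 1.6e-05) and 1353 to 13935 in HUT2365 (3.91, adjusted p = 3e-05).

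Other members differed between BCC199 and another strain, or were low in a single strain. For acu03380_1 the BCC199 libraries held 22421 and 20879 reads on day 3 and 4901 and 2255 on day 6, above the range of 250 to 681 in BCC56535, with a log2 difference of -4.10 from BCC199 (SE 0.51, limma, adjusted p = 2.4e-06). HUT2365 held 445, 4147, 1490 and 1450 reads of it and overlapped with both (-2.58 from BCC199, adjusted p = 0.00026). For acu02931_1 the 4 BCC56535 libraries held between 1601 and 5673 reads, below BCC199 at 18478 to 64073 and HUT2365 at 24127 to 44830 (log2 difference of -3.27, adjusted p = 9.6e-09, and of -3.22, adjusted p = 1.4e-08). BCC56535 thus stood below both other strains for this member with no overlap. For acu06833_1 HUT2365 held between 948 and 1506 reads and BCC199 between 7265 and 14179 (log2 difference -3.05, adjusted p = 4.9e-08).

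Between BCC56535 and HUT2365, the largest differences in each direction among members whose libraries did not overlap were those of acu01105_1 and acu07448_1, higher in BCC56535, and of acu07755_1 and acu02931_1, lower in it. The values of acu02931_1 are given above. BCC56535 held 5330 to 31157 reads of acu01105_1 and HUT2365 706 to 1099 (log2 difference 3.53, SE 0.27, limma, adjusted p = 9.4e-09). It held 3639 to 7055 reads of acu07448_1 beside 277 to 908 (3.13, adjusted p = 8.1e-10). For acu07755_1 BCC56535 held 441 and 174 reads on day 3 and 37.1 and 15.7 on day 6, while HUT2365 held 1026 to 2013 (-4.10, adjusted p = 6.7e-09). A larger difference with overlapping libraries, chosen after its values were seen, was that of acu04076_1 (4.36, SE 0.62, adjusted p = 1.2e-05).

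In glucose, where the members are low, a larger share of them than of all IDs was higher in HUT2365 than in BCC199. Between HUT2365 and BCC199, 113 members passed the test (limma), 70 higher and 43 lower in HUT2365, or 74.3% beside 64% of tested IDs. The share higher in HUT2365 was 46.1% beside 32.3%, and the share lower 28.3% beside 31.7%. Between BCC56535 and BCC199, 104 passed, 63 higher and 41 lower in BCC56535, or 68.4% beside 64.7%, with 41.4% beside 33% higher and 27% beside 31.7% lower. Between BCC56535 and HUT2365, 104 passed, 47 higher and 57 lower in BCC56535, or 68.4% beside 65.5% in either direction (30.9% beside 33.3% higher, 37.5% beside 32.2% lower). The median differences were 0.47, 0.36 and -0.11 on the log2 scale, beside 0.02, 0.04 and 0.02 over all tested IDs. By strain, 41 members were lower in BCC199 than in both others, or 27% beside 17.5%, and 39 were higher in HUT2365 than in both, or 25.7% beside 17.8%. In contrast 17 were higher in BCC199 than in both, or 11.2% beside 17.8%, and 27 lower in HUT2365, or 17.8% beside 17.4%. For BCC56535 28 were higher and 27 lower than in both others, or 18.4% beside 18.4% and 17.8% beside 17.3%, and 10 members passed in no pair, or 6.58% beside 12%. These shares describe the list, and members with low glucose levels in all strains were favoured by the rule itself.

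**Figure D3:**
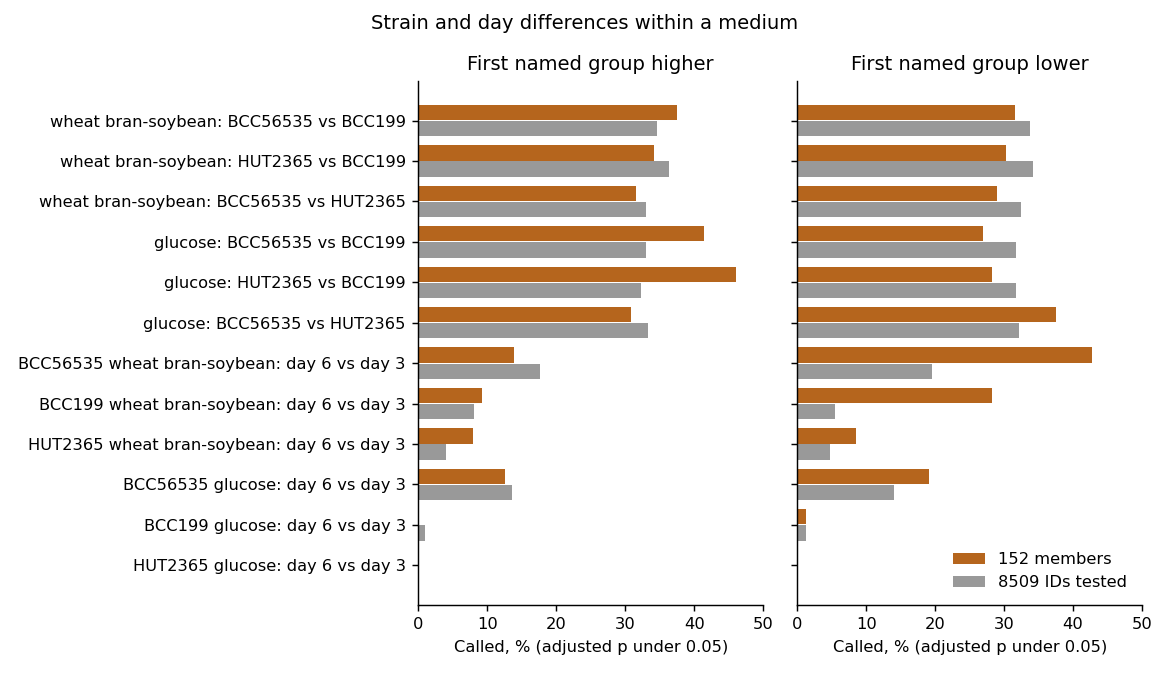
Share of IDs past an adjusted p of 0.05 (x axis, %) in the 12 comparisons within a medium (y axis), for the 152 members (brown) and the 8509 tested IDs (grey), with the first named group or day 6 higher (left) or lower (right). The members lie close to all IDs for strain pairs in wheat bran-soybean, and at 42.8% beside 19.5% and 28.3% beside 5.48% for the falls by day 6 in wheat bran-soybean in BCC56535 and BCC199. The rule that chose the members used values of the same libraries.

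The members named by their size in glucose include several at a few reads in 1 strain. The 4 glucose libraries of HUT2365 held between 597 and 899 reads of acu02511_1 and those of BCC199 between 0 and 2.06, which rest on 5 reads in all. The ratio was 657, with a 95% interval of 281 to 2024 that covers counting error only, and the log2 difference 7.94 (SE 0.47, limma, adjusted p = 2.7e-10). For acu07254_1 BCC56535 held 48 to 226 reads and BCC199 0.796 to 2.07, or 6 reads in all, with a ratio of 77.8 and an interval of 35.4 to 213 (log2 difference 4.70, adjusted p = 1.1e-08). Both members were higher in BCC199 in wheat bran-soybean, as the rule requires of every member. BCC199 there held 701 to 3830 reads of acu02511_1 and 17.6 to 915 of acu07254_1.

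Further members separated the strains in glucose. HUT2365 held 367 to 627 reads of acu00510_1 and BCC199 0 to 15.5 (log2 difference 6.17, limma, adjusted p = 4.8e-08), and HUT2365 held 356 to 388 reads of acu07755_1 and BCC56535 2.52 to 18 (log2 of BCC56535 over HUT2365 -5.45, adjusted p = 1.8e-10). HUT2365 held less of acu00447_2, at 0.902 to 21.3 reads beside 139 to 164 in BCC199 (-4.05, adjusted p = 1.2e-06), and of acu06749_1, at 17.4 to 58.5 beside 115 to 712 (-3.20, adjusted p = 3.8e-08). None of these groups overlapped. BCC56535 held more of acu02509_1, at 242 to 1308 reads, than BCC199 at 15.7 to 45.2 (4.04, adjusted p = 2.5e-05) and HUT2365 at 1.67 to 13.9 (6.07, adjusted p = 2.7e-07). It held more of acu04174_1 than HUT2365, at 182 to 9613 beside 4.74 to 161 (5.82, adjusted p = 1.7e-07). It held less of acu08107_1 than BCC199, at 2.85 to 34.1 beside 153 to 390 (-4.01, adjusted p = 4.2e-09), and of acu02931_1, at 215 to 443 beside 4329 to 5434 (-3.94, adjusted p = 1.1e-09). For acu02931_1 the order of these 2 strains was thus the same in both media.

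Most members that passed in both media kept the order of the strains, as did most of all tested IDs that passed in both. Among members, the limit on M also ties the glucose level to the wheat bran-soybean level in each strain. For BCC56535 against BCC199, 79 members passed in both media, which is 75.2% of those that passed in wheat bran-soybean and 76% of those in glucose, and 59 of the 79 had the same direction. For HUT2365 against BCC199 it was 55 of 74, and for BCC56535 against HUT2365 55 of 66. The same direction was thus seen in 74.7%, 74.3% and 83.3% of members called in both, beside 82.3%, 79.9% and 78.9% of all such IDs. The other 20, 19 and 11 members had opposite directions in the 2 media.

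Between days, the members in wheat bran-soybean more often fell than rose in BCC56535 and BCC199. As for the strains, the rule used these same values. It set a limit on M for each day and a floor on level for at least 1 day. Day differences among members, here and below, are therefore not independent of how the members were chosen, and their shares describe the list. In BCC56535, 86 members passed the test (limma), 65 lower and 21 higher on day 6, or 56.6% beside 37.3% of tested IDs. The share that fell was 42.8% beside 19.5%, and the share that rose 13.8% beside 17.7%. The day 6 replicates of BCC56535 stood apart in the members, with an SD of 0.976 for the log2 difference beside 0.636 over the tested IDs. Library B was the one with the lower member share of reads, at 3.93% beside 5.24% in library A. In BCC199, 57 passed, 43 lower and 14 higher, or 37.5% beside 13.5%, with 28.3% beside 5.48% lower and 9.21% beside 8.02% higher. In HUT2365, 25 passed, 13 lower and 12 higher, or 16.4% beside 8.77%, with 8.55% beside 4.7% lower and 7.89% beside 4.07% higher. The median change was -0.72, -0.51 and 0.17 on the log2 scale in the 3 strains, beside values of -0.01, 0 and -0.01 over all tested IDs. In HUT2365 the count was 15 without library A of day 6, and 0 when only the 4 libraries compared were fitted, against 102 in BCC199 and 61 in BCC56535 in such fits. Without library A or B of day 3, whose replicates stood furthest apart, it was 31 or 21. The day effect passed in no strain for 50 members, or 32.9% beside 53.4%, which does not show that their levels stayed equal.

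**Figure D4:**
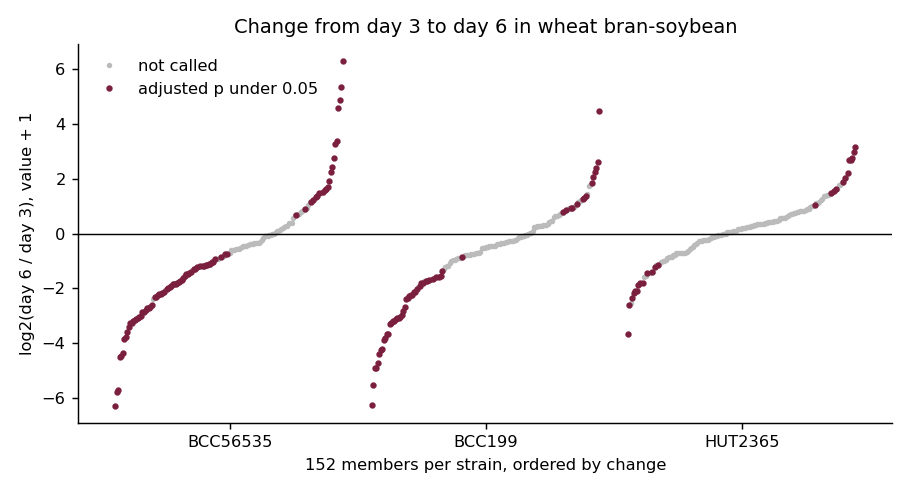
Change from day 3 to day 6 in wheat bran-soybean (y axis, log2 of deposited value + 1) for the 152 members, ordered by change within each strain (x axis); dark points passed an adjusted p of 0.05 and grey points did not. In BCC56535 65 members fell and 21 rose, in BCC199 43 fell and 14 rose, and in HUT2365 13 fell and 12 rose.

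The day effect differed between strains for 66 members, or 43.4% beside 27.4% of tested IDs (limma F test over the 3 strains, adjusted p under 0.05). Of the 65 members that fell in BCC56535, 32 passed as lower in no other strain, as did 10 of the 43 in BCC199 and 0 of the 13 in HUT2365, which by itself does not show a difference between strains. In all 3 strains 11 members fell, or 7.24% beside 0.576% of tested IDs, and 4 rose, or 2.63% beside 0.682%. These shares too describe a list that the rule chose from values of the same libraries, and are no separate support. The counts of 11 and 4 were both 0 when each strain's libraries were fitted alone, since no member then passed in HUT2365. With 1 library left out, 6 to 13 fell and 2 to 5 rose in all 3 strains, with the fewest falls, 6 and 7, without library B or A of HUT2365 on day 6 and 7 without library B of BCC199 on day 3. The rises came to 2 without any 1 of 10 libraries, namely 4 of BCC199 and 2 of BCC56535 in wheat bran-soybean and 4 of HUT2365 in glucose.

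The members that rose in all 3 strains were acu01262_1, acu02511_1, acu00356_2 and acu00649_1, named here after their values were seen, apart from acu01262_1 and acu02511_1. In wheat bran-soybean acu01262_1 went from 314 and 254 reads on day 3 to 22119 and 22449 on day 6 in BCC56535, from 2302 and 2468 to 10385 and 15333 in BCC199, and from 2381 and 3855 to 28185 and 26384 in HUT2365. All 6 libraries of day 6 were above all 6 of day 3. The rise was 6.29 on the log2 scale in BCC56535 (SE 0.42, limma, adjusted p = 3.7e-08), 2.40 in BCC199 (adjusted p = 0.00083) and 3.17 in HUT2365 (adjusted p = 0.00035), and it differed between strains (F test, adjusted p = 0.00043). In glucose BCC56535 held only 7.68 to 81.6 reads of it, below the 78.3 to 204 of BCC199 apart from 1 library, and HUT2365 held 176 to 244. In HUT2365 acu00356_2 went from 15586 and 14330 to 79786 and 60807 reads (2.22, adjusted p = 1.3e-05), with 1.33 in BCC56535 (adjusted p = 8.9e-05) and 1.25 in BCC199 (adjusted p = 0.0004).

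Among the 11 that fell in all 3 strains, acu07198_1 changed most in BCC199. It went from 3659 and 3328 reads to 69.1 and 26.9 in BCC199, from 290 and 384 to 38.2 and 50.9 in BCC56535, and from 785 and 663 to 73.4 and 41.1 in HUT2365. The days did not overlap in any strain, and the changes were -6.27, -2.86 and -3.67 on the log2 scale (limma, adjusted p = 3.2e-06, 0.0016 and 0.002). Its glucose libraries held between 0 and 37 reads. The next in BCC199, chosen after its values were seen, was acu04740_1, which went from 2331 and 2575 reads to 147 and 43.3 (-4.90, adjusted p = 1.6e-06), with -3.27 in BCC56535 (adjusted p = 3.5e-05) and -2.18 in HUT2365 (adjusted p = 0.0071). Of the 11, acu01636_1 changed most in BCC56535, from 16198 and 8426 reads to 344 and 125 (-5.80, SE 0.43, adjusted p = 9.7e-08), and by -1.82 in HUT2365 (adjusted p = 0.016). A further member, acu06779_1, fell in HUT2365 from 18816 and 23490 to 3706 and 3143 reads (-2.62, SE 0.53, adjusted p = 0.0064).

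Other large day changes passed in 1 or 2 strains. In BCC56535 acu02956_1 went from 22180 and 4702 reads to 220 and 76.3 (-6.28, SE 0.77, limma, adjusted p = 1.3e-05), and in BCC199 from 1080 and 1252 to 105 and 16.4 (-4.71, adjusted p = 0.00048), with -2.52 in HUT2365 (adjusted p = 0.052). In BCC56535 acu00835_1 rose from 149 and 91.2 to 2696 and 8615 (5.35, SE 0.82, adjusted p = 0.0001), with 0.76 in BCC199 (adjusted p = 0.62) and 2.08 in HUT2365 (adjusted p = 0.13). Its replicates and those of acu02956_1 in BCC56535 were far apart on 1 of the days. In BCC199 acu00135_2 went from 15892 and 13798 to 577 and 174 (-5.53, SE 0.53, adjusted p = 2.5e-06), and in BCC56535 from 13557 and 12449 to 1016 and 782 (-3.86, adjusted p = 3.4e-05), with 0.05 in HUT2365 (adjusted p = 0.97). The rise of acu03406_1, with the reads given above, passed in BCC56535 (4.60, SE 0.56, adjusted p = 1.3e-05) and in BCC199 (4.49, SE 0.56, adjusted p = 3.9e-05), with 1.76 in HUT2365 (adjusted p = 0.063). In HUT2365 acu07563_1 rose from 515 and 342 to 3835 and 2893 (2.98, SE 0.42, adjusted p = 0.00053), with -0.59 in BCC56535 (adjusted p = 0.29) and 0.45 in BCC199 (adjusted p = 0.55). The libraries of the 2 days did not overlap where a change passed.

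In 7 members, or 4.61% beside 2.5% of tested IDs, the day effect passed with opposite directions in different strains. The count was 3 when each strain's libraries were fitted alone, and 4 without library B of day 3 or library A of day 6 of BCC199. All 7 also passed the F test between strains, which adds no separate support because it takes the same day effects from the same libraries. The clearest by that test among those named by rule was acu02234_1. It fell in BCC56535 from 9774 and 5919 reads to 1205 and 318, and rose in BCC199 from 902 and 1025 to 6335 and 5421, while HUT2365 went from 1579 and 1910 to 2623 and 2190. The log2 changes were -3.61, 2.61 (SE 0.44, limma, adjusted p = 0.00065) and 0.46, and the F test gave an adjusted p of 1.7e-05. Also in this set, and chosen after its values were seen, was acu02538_1, with -3.01 in BCC56535, 1.07 in BCC199 and -1.15 in HUT2365 (F test, adjusted p = 3.1e-06).

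**Figure D5:**
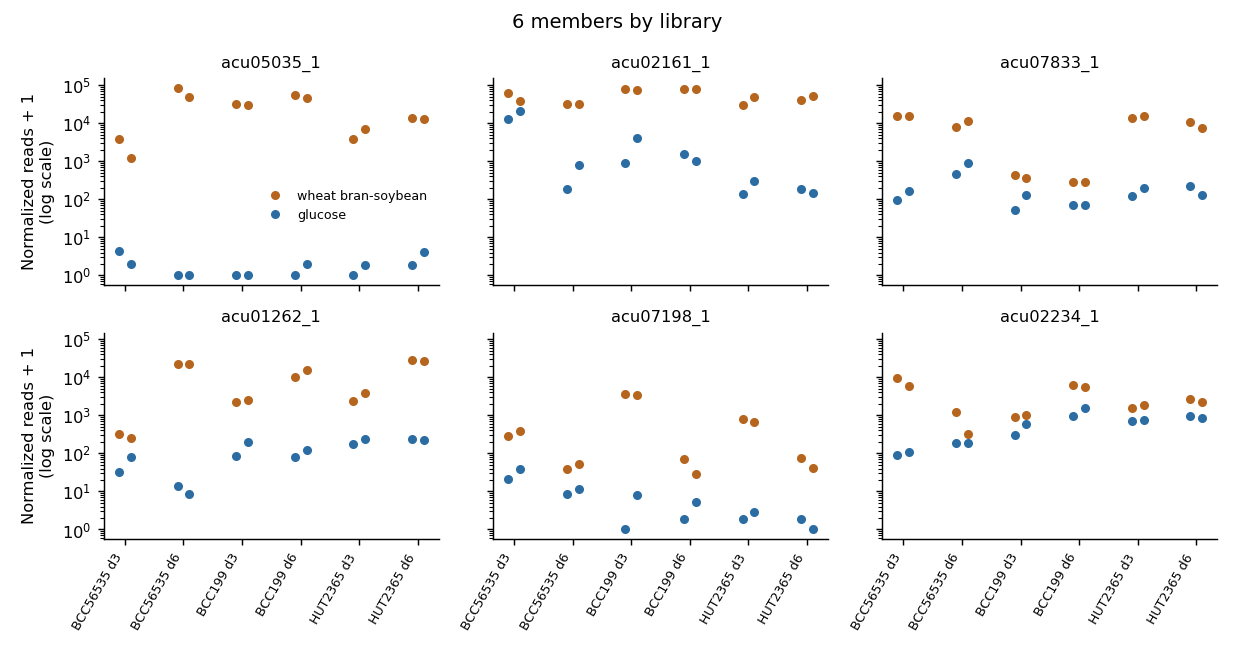
Normalized reads + 1 (y axis, log scale) of 6 members in each of the 24 libraries, by strain and day (x axis, d3 and d6 for day 3 and day 6), in wheat bran-soybean (brown) and glucose (blue). The panels show acu05035_1 at 0 to 3.29 reads in glucose, acu02161_1 with high glucose levels in BCC56535 on day 3, acu07833_1 low in BCC199, acu01262_1 rising and acu07198_1 falling by day 6, and acu02234_1 falling in BCC56535 and rising in BCC199.

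In glucose the members changed less between days than in wheat bran-soybean, and mainly in BCC56535. The same was seen over all tested IDs, so it is not particular to the members. There, 48 members passed the test (limma), 19 higher and 29 lower on day 6, or 31.6% beside 27.6% of tested IDs (12.5% beside 13.6% higher, 19.1% beside 14% lower), and 5 passed when only the 4 libraries compared were fitted. In BCC199, 2 fell, or 1.32% beside 1.23%, and 0 rose beside 0.94%, which makes 1.32% beside 2.17% in either direction, and the count ran from 0 to 8 with 1 library left out. In HUT2365 none passed by limma or by limma with voom weights, beside 0.0353% of tested IDs, and 5 had an unadjusted p under 0.05. The day effect in glucose differed between strains for 30 members, or 19.7% beside 15.1%. The day effect in glucose passed in no strain for 103 members, or 67.8% beside 71.1%, and 0 members passed in opposite directions, beside 0.552% of tested IDs.

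In BCC56535 the falls in glucose were the larger ones. Reads of acu02161_1 went from 12808 and 20872 to 186 and 779, as given above, and those of acu04174_1 from 9613 and 8546 to 182 and 595 (-4.77, SE 0.82, limma, adjusted p = 0.00048). Reads of acu06833_1 rose from 43.9 and 164 to 434 and 664 (2.63, SE 0.39, adjusted p = 0.00015), and those of acu00410_1 from 22 and 21.8 to 192 and 113 (2.65, SE 0.57, adjusted p = 0.0026). The days did not overlap in these 4 members. In BCC199 acu06749_1 went from 510 and 712 to 115 and 188 reads (-2.02, SE 0.40, adjusted p = 0.015) and acu02375_1, outside the naming rule, from 48.6 and 108 to 20.3 and 7.24 (-2.38, SE 0.43, adjusted p = 0.01). Neither passed when only the 4 libraries compared were fitted (acu06749_1, adjusted p = 0.31), and acu06749_1 was at 0.056 without library B of day 3 and at 0.16 and 0.062 without library A or B of day 6.

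In 7 members none of the 3 strain pairs and 3 day effects in wheat bran-soybean passed, or 4.61% beside 5.66% of tested IDs, which does not show that their levels were equal. The count was 2 when only the compared libraries were fitted and ran from 4 to 11 with 1 library left out. They were acu00447_2, acu00510_1, acu01662_1, acu02161_1, acu03942_1, acu04299_1 and acu08242_1. For acu03942_1 the 12 wheat bran-soybean libraries held between 4874 and 10007 reads, a narrow range, while for acu01662_1 they held between 472 and 31905, with both ends in the 2 libraries of HUT2365 on day 3. In glucose acu04299_1 held between 0 and 7.16 reads in the libraries of BCC56535 and BCC199 apart from BCC56535 day 3 B at 299, and between 55 and 167 in HUT2365. All 12 of its wheat bran-soybean libraries were at 5106 reads or more.

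Some members carried neighbouring ID numbers. Each ID has a number that leads it, and 32 members, or 21.1%, had another member at the next lower or higher number, beside 313 of 8463 other IDs, or 3.7%. The sources used here do not give what the numbers stand for. The members formed 13 runs, and the longest ran over 4 numbers, acu08106_1, acu08107_1, acu08108_1 and acu08109_1. The 19 adjacent pairs had a median r of 0.47 over the 12 wheat bran-soybean libraries, beside 0.09 over all 11476 pairs of members, and 8 of the 19 were over 0.8 beside 3.15% of all pairs. These correlations are descriptions over libraries that share strains and days, and whether neighbours share reads was not tested. No r is given for neighbouring IDs outside the list, so the higher r is not shown to be particular to members.

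The closest neighbours were acu03100_1 and acu03101_1, with an r of 0.98. In wheat bran-soybean acu03100_1 went from 23341 and 24182 reads on day 3 to 3281 and 2345 on day 6 in BCC199, and acu03101_1 from 17169 and 16582 to 2242 and 1513. In BCC56535 acu03100_1 went from 6922 and 15131 to 2373 and 1030, and acu03101_1 from 5659 and 10005 to 1851 and 569. Both were thus lower on day 6 with no overlap in these strains, and acu03100_1 was among the 11 that fell in all 3. The pair acu04076_1 and acu04077_1, with an r of 0.97, was highest in BCC56535 on day 3, at 41325 and 11375 reads and at 10990 and 3247. The adjacent acu08242_1 and acu08243_1 had an r of 0.95.

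Not all neighbours moved together. Next to acu02161_1, acu02162_1 had an r of -0.36 with it, and acu04426_1 and acu04427_1 had -0.44. Within the run of 4, r lay between 0.47 and 0.89, and its members differed in glucose. BCC56535 held 1.9 to 24.9 glucose reads of acu08106_1 and 2.85 to 34.1 of acu08107_1, below BCC199 at 85.8 to 158 and 153 to 390. It held 227 to 362 of acu08108_1 and 201 to 387 of acu08109_1, above BCC199 at 10.3 to 54.9 and 63.7 to 101. The order of these strains in glucose was thus opposite in the first and last pair of the run, without overlap.

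Some members also shared a number with other IDs, which then differ in the number at their end. This held for 32 members, or 21.1%, beside 11.7% of all IDs. Under 3 numbers both members of a pair were in the list, acu00086_2 with acu00086_3, acu00329_1 with acu00329_2, and acu00356_1 with acu00356_2. Of the 38 IDs outside the list that share a number with a member, 18, or 47.4%, had M of at least 1 in no combination, beside 54.4% of all IDs outside the list. In HUT2365 wheat bran-soybean acu00356_2 went from 15586 and 14330 reads on day 3 to 79786 and 60807 on day 6, while acu00356_1 went from 10772 and 9667 to 11968 and 10854.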

How the data were processed

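Messenger RNA of 3 A. aculeatus strains was sequenced in 24 libraries. The deposited values are a signal, named as normalized read counts by the authors. Neither the scaling nor an added constant is stated, and both were read from the values. HISAT2 2.1.0, Picard and StringTie are named in the submitters' processing notes. The sources used here do not give their roles, nor the build, annotation, counting and strand settings or the way the factors were made, so reads of similar or overlapping genes may be shared between IDs. In each library the deposited value less 1 was a whole multiple of 1 step, within 0.02 of a step, for 100.0% of IDs, and recovered reads are these multiples.

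A single limma model (version 3.58.1, R 4.3.3) of log2(deposited value + 1) took all 24 libraries with 12 group means and 12 residual degrees of freedom, with variance moderated along the intensity trend. IDs at 10 or more in 2 or more libraries entered, which kept 8509, all 152 members among them, and left out 106. The 12 contrasts were two-sided, the 2 tests of the day effect by strain were moderated F tests, and p-values were adjusted by Benjamini-Hochberg over the 8509 IDs with a threshold of 0.05. Log2 differences are on the log2(value + 1) scale, which understates changes of low IDs. The fit was also run on simulated data that had the same spread in all groups, unlike these libraries, and no result rests on that run. Tables and plots were made with Python 3.11.15, pandas 2.3.3, numpy 2.4.6, scipy 1.17.1 and matplotlib 3.10.9.

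Strain pairs were compared over 4 libraries a strain, with both days weighted equally. They share libraries with each other, and the same libraries chose the members. The strain by medium interaction was not tested, because the rule used its contrast. Members, lists and naming rules were chosen with earlier results of these data known. Per comparison, at most 2 members higher and 2 lower are named by size of change, among called members whose higher group averages 100 or more and does not overlap with the other. Others are named for level, M or range of M. No sequences are shown.

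Alternatives were pseudocounts of 0.5 and 10, no filter, trimmed-mean rescaling, quantile normalization, a fit of the compared libraries alone, the replicate letter as a block, voom weights on recovered reads, other limits of the member rule, and each library left out. Their effect on counts that combine strain or day tests was added after seeing the data.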

Additional observations from a re-analysis of the deposited data

Results flagged for a closer look

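Of the members named by rule for the size of a day change, 12 had a change that differed between strains. The test was limma's moderated F test, with p-values adjusted over all tested IDs. Other members given above also passed it, as did 27.4% of tested IDs in wheat bran-soybean and 15.1% in glucose. Nothing is read from the number 12, because these members were chosen for large day changes in the same libraries. In wheat bran-soybean the adjusted p was 0.00043 for acu01262_1, 0.018 for acu00835_1, 0.043 for acu02956_1, 0.00061 for acu01636_1, 0.019 for acu03406_1, 1.7e-05 for acu02234_1, 0.017 for acu07198_1, 0.00018 for acu00135_2 and 0.001 for acu07563_1. Of these, acu02234_1 passed in opposite directions in BCC56535 and BCC199, and acu01262_1, acu01636_1 and acu07198_1 passed in the same direction in all 3 strains with different sizes. In glucose the adjusted p was 0.0015 for acu06833_1, 0.0015 for acu02161_1 and 0.019 for acu04174_1, and all 3 passed the day test in BCC56535. Groups of 2 libraries are too small to look for a single library that stands apart from its group.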

How the results depend on the processing

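With only the compared libraries in the fit, the number of members past the threshold was 102 instead of 57 for the day effect in wheat bran-soybean in BCC199, 0 instead of 25 in HUT2365, and 5 instead of 48 (BCC56535) and 0 instead of 2 (BCC199) in glucose; the day effect by strain in glucose passed for 19 instead of 30. With voom weights the HUT2365 wheat bran-soybean count was 39 and the glucose count by strain 17. With 1 library left out, these counts ran from 15 to 31 for HUT2365 in wheat bran-soybean and from 0 to 8 for BCC199 in glucose. An M limit of 1.5 left 95 members, and other limits and scalings gave 146 to 190. By construction, the restricted fits have fewer residual degrees of freedom and use the spread of the compared groups alone; for the other changes the cause was not tested. The other counts of single tests stayed within 1.5 times, and no named direction reversed.

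Counts that combine tests were rerun by alternatives chosen after seeing the data. In wheat bran-soybean, the 11 members lower on day 6 in all 3 strains and the 4 higher were 0 and 0 with only the compared libraries, and the 4 were 2 without a filter or with quantile normalization. The 7 with opposite day directions were 3, the 14 with no strain pair past the threshold 8 (9 with voom) and the 7 with no test past it 2 (3 with voom). In glucose, voom gave 22 instead of 10 with no strain pair past it and 1 instead of 0 with opposite directions. With 1 library left out, 6 to 13 were lower in all 3 strains, 2 to 5 higher and 4 to 10 in opposite directions (4 without library B of day 3 or A of day 6 of BCC199), and in wheat bran-soybean 4 to 11 had no test past the threshold and 11 to 21 no strain pair. In glucose 8 to 16 had no strain pair and 0 to 2 opposite directions.

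Libraries of like letter showed no common pairing: over 66 pairs of groups the correlation of deviations ran from -0.485 to 0.229, with a median of 0.0146, and 12 were over 0.1. The letters may be arbitrary within a group. A factor shared by libraries of unlike letter was therefore not tested, and the block does not remove it. With the replicate letter as a block, the wheat bran-soybean counts were 107, 99 and 93 for the strain pairs and 87, 58 and 28 for the days, those in glucose 105, 112, 105, 48, 3 and 0, and the counts by strain 64 and 34. No named result lost its call under the block.

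Of 328 results of named members under the other alternatives, 319 kept their side of the threshold and 9 did not, 8 of them with only the compared libraries; of 260 with a library left out, 256 did and 4 did not. Those lost were acu01262_1, acu07563_1, acu07198_1 and acu06779_1 in HUT2365 wheat bran-soybean (adjusted p = 0.07 each in limma), acu00410_1 (0.067, and 0.14 with voom), acu06833_1 (0.14) and acu02161_1 (0.058) in BCC56535 glucose, and acu06749_1 in BCC199 glucose (0.31, and 0.056 to 0.16 without 1 of 3 libraries). Without library B of day 6, acu06779_1 in HUT2365 was at 0.053. Rescaling moved the median of all IDs by at most 0.07. With 2 libraries a group, differences smaller than the spread between replicates were not detectable.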
